A study of Mus musculus with 40 samples.

Results

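Janus kinases (JAKs) sit on the inner face of cytokine receptors and phosphorylate STAT proteins, which then enter the nucleus and switch on the genes that answer the cytokine. In macrophages exposed to bacterial lipopolysaccharide (LPS), the first wave of secreted cytokines, interferon-beta among them, signals back onto the same cells through these proteins. Interferon-beta signals through TYK2 and JAK1 to STAT2 and its partners, IL-10 and IL-6 signal mainly through STAT3, GM-CSF through JAK2 and STAT5A or STAT5B, IL-12 through JAK2, TYK2 and STAT4, and IL-4 through JAK1 and STAT6. The mRNAs described here are 9 members of these families, picked by name, with earlier results of these data known. They are the kinases Jak1, Jak2 and Tyk2 and the factors Stat2, Stat3, Stat4, Stat5a, Stat5b and Stat6, out of 27179 genes in the expression table. All 9 passed the filter on low values.

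The mRNAs were measured by RNA sequencing in bone marrow-derived macrophages (BMDMs) of male mice on a mixed C57BL/6J and 129 background, 4 wildtype (WT) mice and 4 mice lacking Cpeb4 in the whole body (Cpeb4-/-), Cpeb4 being an RNA-binding protein that acts on poly(A) tails. Bone marrow cells were grown for 7 days with conditioned medium of L cells as the source of M-CSF and were then left untreated or given 10 ng/ml LPS for 1, 3, 6 or 9 hr, so that each mouse gave 5 libraries and the series 40. The WT mice were numbered 25, 69, 87 and 88 and the Cpeb4-/- mice 2, 3, 55 and 62. The labels give 2 batches, each with 2 mice of either genotype, and no cage held both genotypes, so cage and genotype cannot be told apart.

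Levels are given as rlog values, a log2-scale normalised read count in which low counts are pulled towards the gene's mean, so that differences of weakly expressed genes are understated. A mRNA was called changed when its Benjamini-Hochberg adjusted p in limma, over all genes tested, was under 0.05. All 40 libraries lay closest to the mean profile of their labelled time point. The 8 macrophage markers were all above the filter, with means of 9.66 to 18.24. Of the markers of other cells, 2 of 7 for T cells, 0 of 5 for NK cells and 1 of 5 for B cells were above it. So were 4 of 7 for neutrophils and their precursors, 3 of 5 for dendritic cells and 1 of 5 for fibroblasts. The highest means were 6.47 (T cell), 6.34 (neutrophil), 6.04 (dendritic cell), 5.40 (B cell), 2.42 (fibroblast) and 1.82 (NK cell). Cd3d, Cd3e, Cd3g, Ncr1 and Prf1 were near 0 or below. The summed macrophage markers were lower in every Cpeb4-/- library than in every WT library of the same time, for instance 18.92 to 19.14 against 19.24 to 19.32 at 6 hr. Lyz2 (mean 18.24) weighs most in this sum, which is taken on the linear scale, and the next marker is Adgre1 (15.94). Genotype differences of the single markers are not given here, and the part of the lower sum in the differences below was not tested. The Cpeb4 gene sum separated the genotypes at 6 hr, when it was 2.42-fold lower in Cpeb4-/- BMDMs (adjusted p = 0.0011 in limma), and the 2 groups overlapped at the other times. There it differed by -0.24 untreated, 0.37 at 1 hr, -0.55 at 3 hr and -0.31 at 9 hr, none of them called. Whether this sum counts exons left in the deleted allele was not tested.

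In mm10 the kinases are Jak1 (chr4:101152367-101265282, minus strand), Jak2 (chr19:29251828-29313080, plus strand) and Tyk2 (chr9:21104068-21131243, minus strand). Stat4 (chr1:51987148-52107189), Stat2 (chr10:128270559-128292849) and Stat6 (chr10:127642986-127660957) are on plus strands. Stat5b (chr11:100780731-100850724, minus strand), Stat5a (chr11:100859351-100885169, plus strand) and Stat3 (chr11:100885098-100939540, minus strand) stand side by side, and Cpeb4 is on the same chromosome (chr11:31872211-31935634). Stat5a and Stat5b are close paralogs, and 8.21% of the 50-base stretches of the annotated Stat5a transcripts also occur in Stat5b transcripts, so reads of these stretches cannot be given to either gene. For Stat4, 21.7% of the 50-base stretches occur in the overlapping annotated gene Gm28177, and for Tyk2 7.14% occur, on the opposite strand, in 1700084C06Rik. The library kit does not mark strand, so the values of Stat4 and Tyk2 may include reads of these neighbours. No 50-base stretch of Jak1, Jak2 or Stat6 occurred in another annotated gene.

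RefSeq promoter windows (GRCm38.p6), from 250 bases before to 50 after each start, were found for all 9 members, 12 windows in all because some have several starts. The interferon-stimulated response element (ISRE), which the STAT2-containing complex binds, was searched on both strands as GAAA, any 2 bases and GAAA, and the gamma-activated site (GAS) of STAT dimers as TTC and GAA with 3 bases between them or, the spacing that STAT6 prefers, with 4. The ISRE letters stood in 2 of the 12 windows and in 3.44% of all 32851 promoters, the 3-base-spaced site in 0 of 12 and 8.3% of all, and the 4-base-spaced site in 1 of 12 and 6.95% of all. The windows with a match are given because they belong to the member with the highest level at 6 hr and to the member with the lowest level. Capitals mark the match, Stat2 having a reverse-strand ISRE that starts 222 bases before the RefSeq start (chr10:128270266-128270295, plus strand shown) and a 4-base-spaced site 210 bases before it (chr10:128270278-128270307), which does not overlap it. Stat4 has an ISRE 97 bases before the start of its downstream promoter (chr1:52008133-52008162, plus strand). A match describes letters and is not a bound site.
Stat2 ISRE: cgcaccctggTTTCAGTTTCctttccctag
Stat2 4-base-spaced site: tcagtttcctTTCCCTAGAActcacggttc
Stat4 ISRE: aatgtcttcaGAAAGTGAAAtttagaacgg

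Per kilobase of exon, where levels of different genes can be compared, Stat6 was the most abundant member in untreated WT BMDMs and Stat2 the most abundant at 6 hr of LPS. In untreated WT BMDMs the normalised read count per kilobase was 1203 ± 57 (SD, n = 4) for Stat6, 773 ± 36 for Stat2 and 709 ± 44 for Jak1, and the last 2 overlapped. Stat3 (382 ± 21), Jak2 (378 ± 21) and Tyk2 (340 ± 25) formed a middle group in which neighbours overlapped. Stat5b stood at 279 ± 16 and Stat5a at 161 ± 0.53, without overlap. Stat4 was at 17.8 ± 2.0, far below the others. At 6 hr the order was Stat2 (4281 ± 229), Jak2 (3116 ± 166), Stat3 (1951 ± 90), Jak1 (1840 ± 79), Stat6 (910 ± 34), Tyk2 (853 ± 41), Stat5a (523 ± 21), Stat5b (380 ± 14) and Stat4 (20.8 ± 1.8). Stat3 and Jak1 overlapped there, as did Stat6 and Tyk2. In Cpeb4-/- BMDMs at 6 hr the highest levels per kilobase were again those of Stat2 (3740 ± 298) and Jak2 (3157 ± 316), and Tyk2 stood at 644 ± 62. These values depend on the merged exon length of each gene, which counts exons of all annotated isoforms.

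**Figure D1:**
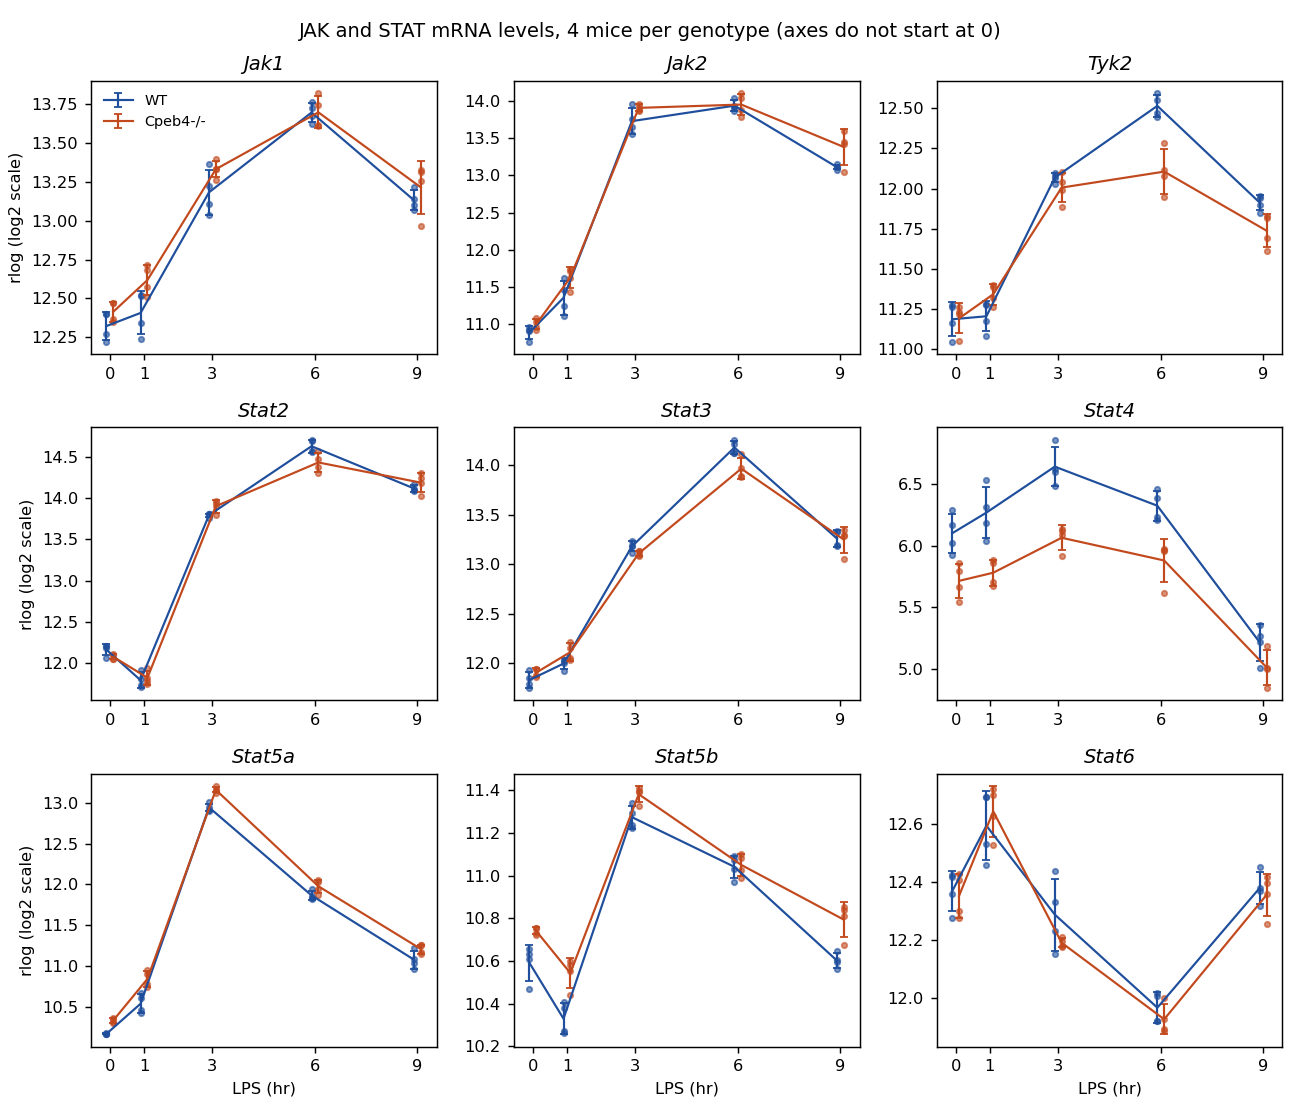
Level of each member in rlog units (log2 scale, vertical axes not starting at 0) against hours of LPS, with points for single libraries and lines and bars for the mean ± SD of 4 mice in WT (blue) and Cpeb4-/- (orange). By group means, Jak1, Jak2, Tyk2, Stat2 and Stat3 were highest at 6 hr in both genotypes. Stat4, Stat5a and Stat5b had their highest means at 3 hr and Stat6 at 1 hr, also in both. Tyk2 at 6 hr lay at 11.95 to 12.28 in Cpeb4-/- against 12.45 to 12.59 in WT.

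How these mRNAs respond to LPS in WT BMDMs was asked by comparing each time with untreated cells, in 1 limma fit over all 40 libraries. The 3 kinases rose with different size and the same order of times, 6 hr being the highest and untreated cells the lowest. Jak2, the kinase of the GM-CSF and interferon-gamma receptors, had the largest change of the 9 members, from 10.77 to 10.96 in the 4 untreated WT libraries to 13.86 to 14.04 at 6 hr. This is a rise of 3.04 (SE 0.094) on the log2 scale or 8.24-fold (adjusted p = 5.4e-26). Most of it was reached by 3 hr (2.84), and the step from 3 to 6 hr in WT was 0.21, short of the threshold (adjusted p = 0.021 with the mouse as replicate block), and -0.10 under quantile normalization. Jak1, which pairs with many cytokine receptors, rose by 1.38 (SE 0.072, 2.59-fold, adjusted p = 5.0e-19) at 6 hr, with libraries at 12.22 to 12.40 untreated and 13.62 to 13.76 at 6 hr. Tyk2, the kinase bound to the interferon-alpha/beta and IL-12 receptors, rose by 1.33 (SE 0.062, 2.51-fold, adjusted p = 1.4e-20) at 6 hr, from 11.05 to 11.27 to 12.45 to 12.59. At 1 hr Jak2 alone of the kinases had risen in WT, by 0.47 (SE 0.094, adjusted p = 1.2e-04).

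Among the STAT factors, Stat2 and Stat3 peaked at 6 hr and Stat5a, Stat5b and Stat4 at 3 hr. Stat2, the interferon-alpha/beta factor, first fell by 0.37 (SE 0.056, adjusted p = 1.2e-06) at 1 hr, where the WT libraries lay at 11.71 to 11.92 against 12.06 to 12.21 untreated, and then rose to 14.56 to 14.70 at 6 hr. The rise at 6 hr was 2.47 (SE 0.056, 5.54-fold, adjusted p = 4.4e-30). Stat3, which carries the IL-10 and IL-6 signals, rose by 2.35 (SE 0.055, 5.11-fold, adjusted p = 1.4e-29) at 6 hr, from 11.75 to 11.93 to 14.12 to 14.26, and was still 2.70-fold above untreated cells at 9 hr.

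The paralogs Stat5a and Stat5b, factors of GM-CSF signalling, peaked together with unlike size. Stat5a was at 10.16 to 10.17 in the untreated WT libraries and at 12.91 to 13.01 at 3 hr, a rise of 2.78 (SE 0.052, 6.86-fold, adjusted p = 3.8e-32), and had dropped to 10.96 to 11.22 by 9 hr. Stat5b fell at 1 hr, by 0.26 (SE 0.044, adjusted p = 8.5e-06), was 1.60-fold higher than in untreated cells at 3 hr (change 0.68, adjusted p = 5.0e-16), and at 9 hr differed from untreated by 0.0099 (adjusted p = 0.85) or, under quantile normalization, by -0.17, past the threshold.

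Stat4 and Stat6 had other courses. Stat4, the IL-12 factor, was weakly expressed in every group. In WT it lay at 5.93 to 6.29 untreated, 6.49 to 6.86 at 3 hr and 5.01 to 5.36 at 9 hr. At 6 hr it was 0.22 above untreated cells (adjusted p = 0.054, or 0.022 with the mouse as replicate block), and 0.59 above them under quantile normalization. It was 0.54 (SE 0.107, adjusted p = 3.0e-05) higher at 3 hr and 0.89 (SE 0.107, adjusted p = 2.9e-09) lower than untreated at 9 hr, when the 2 groups did not overlap. It was the only member called lower at 9 hr, with Stat5b and Stat6 joining it under quantile normalization. Stat6, the IL-4 factor, had the smallest range. It was 0.23 (SE 0.055, adjusted p = 0.0012) higher at 1 hr, a difference of -0.0040 under quantile normalization, and was the only member called lower at 6 hr, having fallen by 0.40 (SE 0.055, adjusted p = 4.2e-08) from 12.27 to 12.42 to 11.92 to 12.02. At 9 hr it differed from untreated cells by 0.011 (adjusted p = 0.86), but by -0.43, past the threshold, under quantile normalization.

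In WT BMDMs 6 of 9 members were called after 1 hr of LPS, beside 37.7% of all 13103 genes tested. After 3, 6 and 9 hr the counts were 8, 8 and 7, beside 69.9%, 79.9% and 73.7%. In Cpeb4-/- BMDMs the counts were 8, 9, 8 and 7, beside 41.9%, 69.9%, 77.9% and 71.3%. The counts in either direction are close to those shares from 3 hr on. In WT, 8 of 9 members were called higher at 3 hr (33.5% of all genes), 7 at 6 hr (39.7%) and 6 at 9 hr (37%). The median change of the members in WT at 6 hr was 1.38, beside -0.020 over all genes tested. Quantile normalization moved the median change of the 4524 genes with mean rlog of 10 to 15 from 0.32 to -0.084 at 6 hr in WT, while it moved the median of all genes there by -0.034. At 6 hr no member's direction turned under it. The 1 hr rise of Stat3 (0.17, adjusted p = 0.016) became -0.028, and lost its call without WT mouse 25 or 69 (adjusted p = 0.069 and 0.14).

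Between consecutive times, 9, 8 and 9 members were called in WT at 3 against 1 hr, 6 against 3 hr and 9 against 6 hr, where 62.9%, 66.8% and 54.4% of all genes were. The corresponding counts in Cpeb4-/- were 9, 6 and 9, beside 62.2%, 62.9% and 51.5%. From 6 to 9 hr 8 members fell and Stat6 rose in either genotype (29.5% of all genes fell in WT and 26.6% in Cpeb4-/-), although under quantile normalization the Stat2 step in Cpeb4-/- was 0.013. The order of the 5 group means was the same in WT and Cpeb4-/- for each of the 9 members, though some neighbouring means were not called different. In Cpeb4-/- the steps from 3 to 6 hr of Jak2 (0.044), Tyk2 (0.099) and Stat4 (-0.19) were not called. Stat5b and Stat6 at 9 hr were not called against untreated cells in either genotype.

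**Figure D2:**
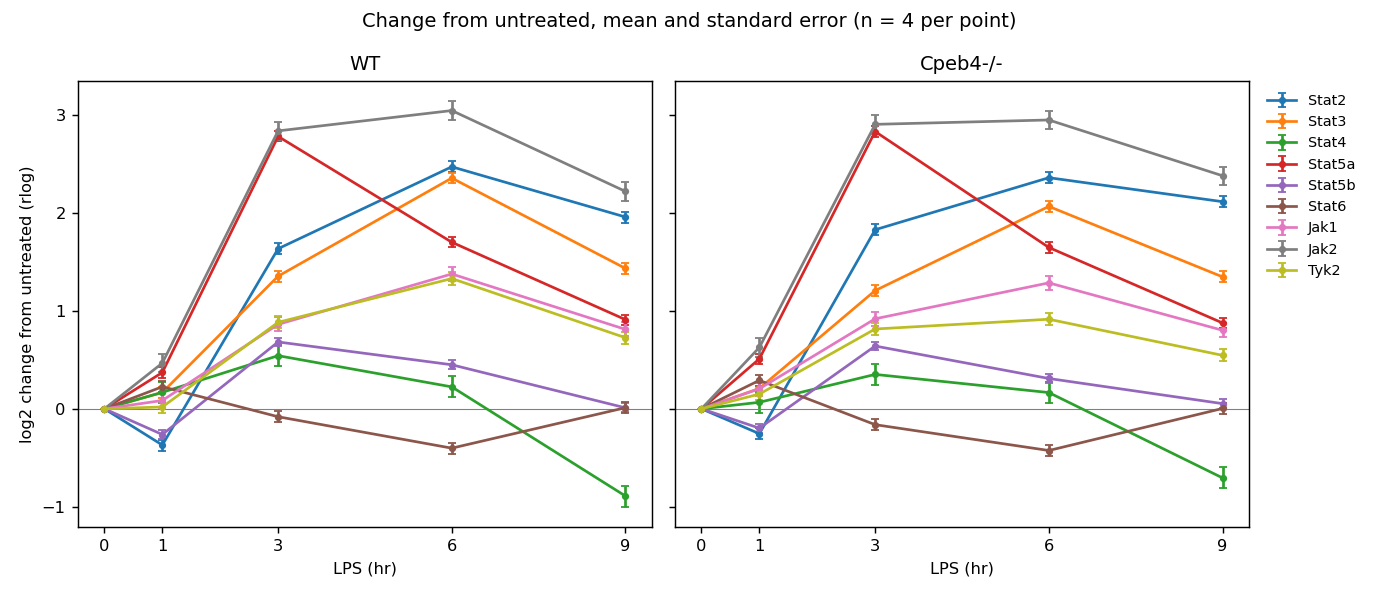
Change of each member from untreated cells (log2 scale of the rlog values, vertical axis) against hours of LPS (horizontal axis) in WT (left) and Cpeb4-/- (right), with bars for the standard error of the limma fit (4 libraries per point). Jak2 and Stat5a rose by 2.78 to 2.90 at 3 hr in both genotypes, after which Stat5a dropped and Jak2 stayed high, and Stat6 is the one line below 0 at 6 hr.

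Whether the loss of Cpeb4 changed these mRNAs was asked separately at each time, in limma fits of the 8 libraries of that time. At 0 hr and 1 hr no member passed the threshold in limma, beside 1.31% and 1.91% of all genes called. An unadjusted p under 0.05 was found for 3 and 6 of 9 members at these times, and for 17.6% and 35.3% of all genes. At 3 hr 2 members were called (3.68% of all genes), Stat5a higher and Stat4 lower. At 6 hr 4 members were called (16.3% of all genes, 9.92% lower), and all 4 were lower in Cpeb4-/- BMDMs, namely Tyk2, Stat4, Stat3 and Stat2. At 9 hr none was called (7.91% of all genes), with an unadjusted p under 0.05 in limma for 3 of 9 members and 26.9% of all genes. In a pooled fit of the 40 libraries with the mouse as replicate block, 2, 5 and 2 members were called at 0, 1 and 9 hr, and the 2 at 3 hr and 4 at 6 hr were called as well.

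The libraries of the genotypes did not overlap for 3 of 9 members in untreated cells (10.5% of all genes) and for 3 (15.7%), 2 (13.6%), 3 (20.2%) and 2 (16.9%) members after 1, 3, 6 and 9 hr of LPS.

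Tyk2 had the lowest adjusted p of the genotype differences. At 6 hr its rlog value was 12.45, 12.55, 12.47 and 12.59 in WT mice 25, 69, 87 and 88 and 12.08, 12.12, 12.28 and 11.95 in Cpeb4-/- mice 2, 3, 55 and 62. The genotypes did not overlap, every Cpeb4-/- value being the lower. The difference was -0.41 (SE 0.063, 95% interval -0.55 to -0.27, adjusted p = 0.0014), so that Tyk2 mRNA was 1.33-fold lower. It was -0.49 in batch 1 and -0.33 in batch 2. Tyk2 passed the threshold in 16 of 16 alternative analyses, with adjusted p from 1.3e-05 to 0.022. In untreated cells the genotypes differed by 0.0056 (95% interval -0.13 to 0.15). At 1 hr Tyk2 was higher in Cpeb4-/- BMDMs by 0.14 (0.0046 to 0.27), short of the threshold (adjusted p = 0.13 in limma). At 3 hr the difference was -0.062 (-0.18 to 0.054). It was -0.17 at 9 hr (adjusted p = 0.090, the libraries of the genotypes not overlapping, and 0.047 without Cpeb4-/- mouse 2).

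From untreated cells to 6 hr, Tyk2 rose by 1.33 in WT and 0.91 in Cpeb4-/- BMDMs, and the genotype by time interaction was -0.42 (SE 0.088, adjusted p = 0.0065 in the limma fit of 40 libraries). It was called in 13 of 14 alternatives, the exception being the fit without Cpeb4-/- mouse 62 (adjusted p = 0.075). Within single mice the rise was 1.18 to 1.43 in WT and 0.69 to 1.23 in Cpeb4-/-. The ranges overlapped, Cpeb4-/- mouse 55 (1.23) lying above WT mouse 25 (1.18). An exact permutation test gave a two-sided p of 0.057 (Benjamini-Hochberg adjusted over 36 tests 0.41). The smallest p that 4 against 4 mice allow is 0.029. Over 36 tests an adjusted p could pass the threshold only if many tests reached that smallest value, so the adjusted value decides little.

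Stat3 at 6 hr lay at 14.12, 14.21, 14.13 and 14.26 in WT mice 25, 69, 87 and 88 and at 13.89, 13.98, 14.11 and 13.88 in Cpeb4-/- mice 2, 3, 55 and 62. The groups did not overlap, though the highest Cpeb4-/- library (14.11) came close to the lowest WT library (14.12). The difference was -0.21 (SE 0.056, adjusted p = 0.023), with -0.26 in batch 1 and -0.17 in batch 2, and it was called in 9 of 16 alternatives (adjusted p 0.0038 to 0.093). Without Cpeb4-/- mouse 2 or 62, or WT mouse 69 or 88, the adjusted p was 0.059 to 0.077. Its rise from untreated cells was 2.35 in WT and 2.06 in Cpeb4-/-, an interaction of -0.29 (SE 0.078, adjusted p = 0.035) that was called in 5 of 14 alternatives (adjusted p 0.0052 to 0.21) and, of the fits that left out 1 mouse, held only in that without Cpeb4-/- mouse 55. Within single mice the rise was 2.27 to 2.47 in WT and 1.94 to 2.26 in Cpeb4-/- (exact permutation test, two-sided p = 0.029, adjusted 0.41). The unadjusted p is the smallest that this test allows, so its adjusted value cannot decide the question.

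Stat2 at 6 hr lay at 14.57, 14.69, 14.56 and 14.70 in the WT mice and at 14.38, 14.47, 14.57 and 14.31 in the Cpeb4-/- mice, in the same order of mice. Cpeb4-/- mouse 55 lay within the WT range. The difference of -0.20 (SE 0.061, adjusted p = 0.045) was called in 6 of 16 alternatives, shrank to -0.075 under quantile normalization, and lost the call without any one of Cpeb4-/- mice 2, 3 and 62 or WT mice 25, 69 and 88. Those 6 fits gave an adjusted p of 0.055 to 0.12. The interaction of Stat2 at 6 hr missed the threshold (-0.11, adjusted p = 0.55).

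Stat4 was lower in Cpeb4-/- BMDMs at several times. At 3 hr it stood at 6.49, 6.86, 6.63 and 6.60 in WT mice 25, 69, 87 and 88 and at 6.12, 6.13, 6.09 and 5.92 in Cpeb4-/- mice 2, 3, 55 and 62, a difference of -0.58 (SE 0.10, 1.49-fold lower, adjusted p = 0.017). At 6 hr it stood at 6.21, 6.47, 6.23 and 6.39 against 5.98, 5.97, 5.96 and 5.62, a difference of -0.45 (SE 0.107, 1.36-fold lower, adjusted p = 0.015). The groups did not overlap at either time, nor in untreated cells (-0.39, adjusted p = 0.11) or at 1 hr (-0.49, adjusted p = 0.063), where the threshold was missed, though not in the pooled fit with the replicate block (adjusted p = 0.029 and 0.0018). At 9 hr they overlapped (-0.20, adjusted p = 0.29). The calls held in 13 of 16 alternatives at 3 hr and 15 of 16 at 6 hr. Without Cpeb4-/- mouse 3 or 62 the adjusted p at 3 hr was 0.058 and 0.061. No Stat4 interaction was called (-0.058 at 6 hr, adjusted p = 0.90). Stat4 is best known in lymphoid cells, and the summed T cell markers, made up mainly of Cd4 and Lck with Cd3d, Cd3e and Cd3g near 0, were 8.30 to 8.69 in WT and 7.99 to 8.19 in Cpeb4-/- at 6 hr. The T cell sums overlapped in untreated cells and at 1 and 3 hr, and not at 9 hr. The summed NK cell markers, with 0 of 5 above the filter, went the other way from Stat4. They were 2.48 to 2.77 in WT and 3.41 to 3.55 in Cpeb4-/- untreated, 2.62 to 2.85 and 3.73 to 4.08 at 1 hr, 2.82 to 2.96 and 3.44 to 3.95 at 3 hr, and overlapped at 6 hr (3.16 to 3.41 and 3.39 to 3.60) and 9 hr. The summed B cell markers, with 1 of 5 above the filter, were 6.19 to 6.64 in WT and 5.88 to 6.09 in Cpeb4-/- untreated. They overlapped at 1, 3, 6 and 9 hr. The part of these sums in the Stat4 difference was not tested. In bulk RNA fewer cells of a type and less RNA per cell cannot be told apart.

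Stat5a was higher in Cpeb4-/- BMDMs at 3 hr, at 13.12, 13.16, 13.20 and 13.15 in mice 2, 3, 55 and 62 against 12.95, 13.01, 12.91 and 12.91 in WT mice 25, 69, 87 and 88. The difference was 0.22 (SE 0.044, adjusted p = 0.030) and was called in 8 of 16 alternatives. Leaving out 1 of 6 mice, Cpeb4-/- 2, 3, 55 or 62 or WT 25 or 87, brought the adjusted p to 0.066 to 0.097. Stat5a was also above all WT libraries in untreated cells (0.17, adjusted p = 0.073) and at 1 hr (0.30, adjusted p = 0.062). Stat5b differed in the same direction, with no overlap in untreated cells (0.15, adjusted p = 0.16), at 1 hr (0.21, adjusted p = 0.072) and at 9 hr (0.19, adjusted p = 0.051), each short of the threshold. In the pooled fit with the replicate block the adjusted p of Stat5b was 0.041, 9.2e-04 and 0.0013 at these times, and that of Stat5a at 1 hr was 6.8e-05. The paralogs share some sequence, and whether reads of the shared stretches bear on both differences was not tested.

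For Jak1, Jak2 and Stat6 no difference between the genotypes was called in the fits by time. Jak1 differed by 0.0013 at 6 hr (95% interval -0.12 to 0.12) and at most by 0.21 at 1 hr (0.042 to 0.38, adjusted p = 0.10, or 0.023 in the pooled fit with the replicate block). Without WT mouse 88 at 3 hr, or Cpeb4-/- mouse 2 at 9 hr, Jak1 was called higher (0.21 and 0.17, adjusted p = 0.027 and 0.018), as was Jak2 at 3 hr without WT mouse 88 (0.25, adjusted p = 0.018). Jak2 differed by 0.015 at 6 hr (-0.13 to 0.16) and by 0.27 at 1 hr and again at 9 hr (adjusted p = 0.12 and 0.11, or 0.027 and 0.038 in the pooled fit with the replicate block), where at 9 hr batch 1 gave 0.40 and batch 2 gave 0.14. At 9 hr Cpeb4-/- mouse 2 was the lowest at 13.05, the other 3 lying at 13.42 to 13.60 against 13.07 to 13.15 in WT, and without that mouse the difference was 0.38 with adjusted p = 8.5e-04. Stat6 differed by -0.097 to 0.049 over the 5 times.

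**Figure D3:**
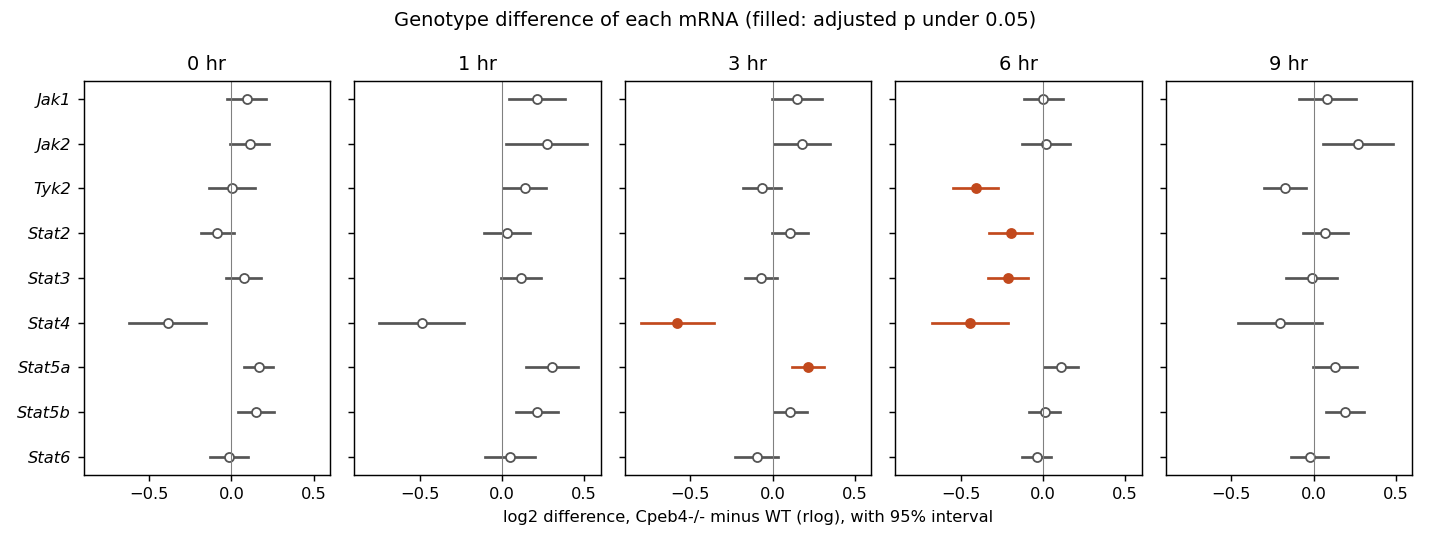
Difference of each member between Cpeb4-/- and WT (log2 scale of the rlog values, horizontal axis) at the 5 times, with the 95% interval of the limma fit of 8 libraries. Filled orange points passed an adjusted p of 0.05, which were Stat4 (-0.58) and Stat5a (0.22) at 3 hr and Tyk2 (-0.41), Stat4 (-0.45), Stat3 (-0.21) and Stat2 (-0.20) at 6 hr.

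The interaction of genotype and time was called for 2 of 9 members at 6 hr, Tyk2 and Stat3 (2.94% of all genes, 2.04% lower), and for none at 1, 3 and 9 hr in limma, where 0.00763%, 0.206% and 1.76% of all genes were called. An unadjusted p under 0.05 was found for 0, 1 and 1 member at 1, 3 and 9 hr, beside 1.57%, 5.03% and 12% of all genes. All 9 interactions at 6 hr were negative, with a median of -0.096 beside -0.016 over all genes tested. Over the 4524 genes with mean rlog of 10 to 15 the median was -0.033. The share of all genes with a negative interaction is not given here, and the 9 values come from the same libraries. Under quantile normalization the interactions of Jak2, Stat2 and Stat6 were above 0. Comparisons with untreated cells share those libraries, so the interactions at different times are not independent.

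**Figure D4:**
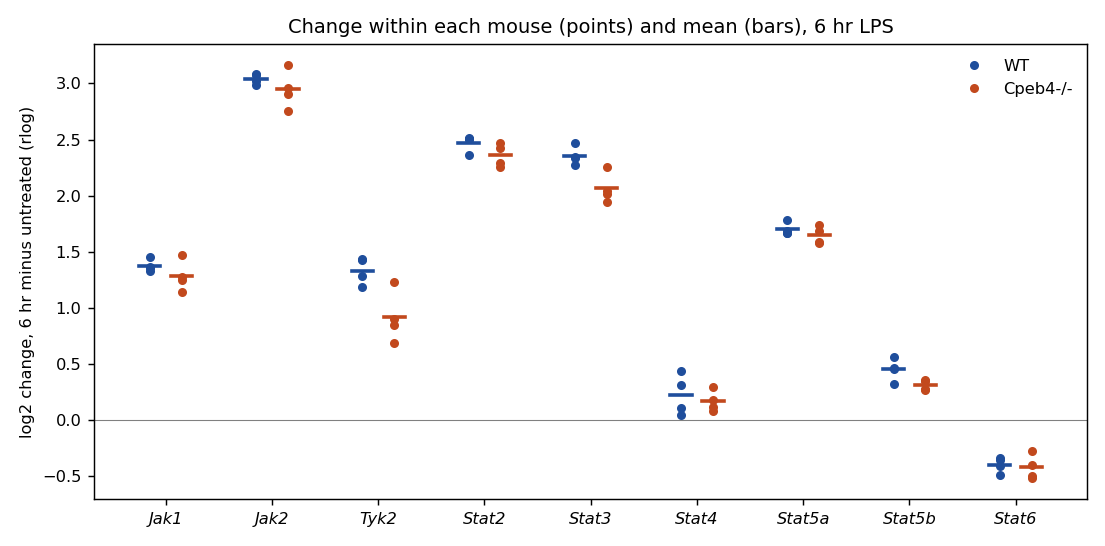
Change from untreated cells to 6 hr of LPS in each mouse (points, log2 scale of the rlog values) with the mean of 4 mice (bars) for WT (blue) and Cpeb4-/- (orange). For Stat3 the 4 Cpeb4-/- mice (1.94 to 2.26) lie below the 4 WT mice (2.27 to 2.47), and for Tyk2 1 Cpeb4-/- mouse (1.23) lies within the WT range of 1.18 to 1.43.

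The rest of the pathway was described through lists of its ligands, receptors, inhibitors and STAT target genes. Some genes stand on several lists, and each count below is of genes called between the genotypes at 6 hr, where 6.4% of all genes were higher and 9.92% lower and the median over all genes was -0.015. Of 14 ligands tested, 5 were higher and 6 lower, with a median of -0.045. Il12a, which encodes a subunit of IL-12, was 0.94 (SE 0.198, adjusted p = 0.0079) higher, and Il10, the anti-inflammatory cytokine that acts through STAT3, was 0.78 (SE 0.077, adjusted p = 1.2e-04) lower in Cpeb4-/- BMDMs. Il10 lay at 11.08 to 11.37 in WT and at 10.32 to 10.66 in Cpeb4-/-, with no overlap. Il23a and Il6 were higher (0.68 and 0.48), and Il12b and Il27 lower (-0.53 and -0.51). In WT 14 of 14 ligands had risen at 6 hr, when 39.7% of all genes were called higher.

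Of 22 receptors, 3 were higher and 3 lower, with a median of -0.028. Il4ra, which signals through JAK1 and STAT6, was 0.48 (SE 0.053, adjusted p = 2.4e-04) lower, at 14.93 to 15.15 in WT and 14.49 to 14.60 in Cpeb4-/-. Csf2rb, the shared chain of the GM-CSF receptor, was 0.28 (SE 0.049, adjusted p = 0.0030) higher, and Il12rb2 was 0.39 (SE 0.107, adjusted p = 0.026) lower. Of 19 inhibitors, 1 was higher (Socs2, 0.63) and 3 were lower, with a median of -0.045. Usp18, which limits interferon receptor signalling, differed by -0.45 (SE 0.058, adjusted p = 5.9e-04), the phosphatase Ptpn1 by -0.30 (SE 0.041, adjusted p = 8.2e-04) and Socs3, an inhibitor of STAT3 signalling, by -0.20 (SE 0.046, adjusted p = 0.014).

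Of the 15 genes listed as partner or targets of STAT2, all were higher than untreated at 3, 6 and 9 hr in WT (33.5%, 39.7% and 37% of all genes), with a median change of 3.77 at 6 hr. Between the genotypes at 6 hr 13 of the 15 were lower and none higher in Cpeb4-/- BMDMs, with a median of -0.32. Rsad2, an antiviral protein, lay at 17.55 to 17.92 in WT and 16.93 to 17.39 in Cpeb4-/- (-0.60, SE 0.105, adjusted p = 0.0030), and Ifit3, an interferon-induced antiviral protein, lay at 14.21 to 14.37 and 13.59 to 13.90 (-0.56, SE 0.062, adjusted p = 2.4e-04). Ifi44 (-0.60) and Ifit2 (-0.57) were lower too. At 1, 3 and 9 hr 2, 5 and 3 of the 15 were lower (0.938%, 1.87% and 3.22% of all genes), with medians of -0.23, -0.27 and -0.17. In untreated cells limma called none, with 12 of 15 at an unadjusted p under 0.05 (17.6% of all genes) and a median of -0.22. The interaction of genotype and time was called by limma for 0 of the 15 at each time, with 0, 2, 2 and 1 at an unadjusted p under 0.05 after 1, 3, 6 and 9 hr and a median of -0.17 at 6 hr. Stat2 itself was called between the genotypes at 6 hr only, where it was lower in Cpeb4-/- BMDMs. It differed by -0.086 in untreated cells and by 0.030, 0.11 and 0.071 at 1, 3 and 9 hr, none of them called. At 1, 3 and 9 hr the sign of the Stat2 difference is not established, since none of these differences was called. Without Cpeb4-/- mouse 55 it was -0.0080 at 1 hr. The part of Stat2 mRNA in the lower target levels was not tested.

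Of 14 STAT3 targets, 6 were lower and none higher at 6 hr, with a median of -0.16. Etv3, a transcriptional repressor, was 0.63 (SE 0.076, adjusted p = 4.2e-04) lower, Bcl6 0.42 (SE 0.061, adjusted p = 0.0011) lower and Sbno2, a corepressor of the IL-10 response, 0.29 (SE 0.041, adjusted p = 9.6e-04) lower. Of 8 STAT5 targets, 2 were higher (Osm, 0.46, and Socs2) and 2 lower (Ccnd1, -0.38, and Bcl2l1, -0.31), with a median of -0.012. Cish, the feedback inhibitor that STAT5 induces, differed by 0.37 (adjusted p = 0.089). Of 13 STAT6 targets, 2 were higher (Arg1, 0.57, and Ccl24, 0.30) and 3 lower, Il4ra and Mrc1 (-0.44) among them, with a median of 0.095.

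The genes whose 40 values ran most like each member, among 10953 genes whose mean rlog was 5 or more, are given as a description, since the points share mice, times and libraries. Stat2 ran with AW011738 and Oas2 (Pearson's r of 0.99 each), and Stat3 with Nlrc5 (0.995), Tdrd7 and Tor1aip1 (0.99 each). Jak2 ran with Lpar1, Slfn8 and Parp14 and Jak1 with Nr3c1, Fndc3a and Sec23ip (0.99 each). Tyk2 ran with Parp8 (0.99) and Trim25 (0.98), and Stat5a with Zhx2 (0.99), Rhou and Pwp1 (0.98 each). Stat5b ran with Fzd7 (0.97), Phlpp2 (0.96) and Bcorl1 (0.95), Stat6 with Smad3 and Sin3a (0.94 each) and Flvcr1 (0.93), and Stat4 less closely with Nptn, Dtd1 and Hsd17b11 (0.89 each). Oas2, Slfn8, Parp14 and Trim25 are known as interferon-induced genes.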

How the data were processed

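RNA of the 40 BMDM libraries was poly(A)-selected and made into libraries with a kit that does not mark strand. The authors aligned reads with STAR 2.3.0e to mm10, counted them per gene with featureCounts and deposited 1 table of rlog values (DESeq2), which are on a log2 scale. All values here start from that deposited log2 table. Sequencing depth is not part of it, so no counting error is given, and p-values rest on the spread between mice. Groups came from the labels, 4 mice for each genotype and time, and no libraries were identical.

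limma 3.58.1 (R 4.3.3) was used for all tests across genes, two-sided, with eBayes trend and Benjamini-Hochberg adjustment. For each genotype comparison the 8 libraries of a time were fitted, with genes of mean rlog of at least 2.32 (log2 of 5) kept. LPS and interaction contrasts came from 1 fit of 10 group means over 40 libraries. Changes within mice were compared by an exact permutation test. Alternatives were quantile normalization, the filter set to none or to a mean of 5, eBayes run robustly or with no trend, batch as a covariate, a pooled fit, the mouse as a block, and leaving out each mouse. The fits were tested on simulated data. Replicate numbers name the mouse, so libraries of a number are paired by animal. The deviations of the 80 same-mouse pairs from their group means had a median correlation of 0.34 (66 over 0.1, lowest -0.34). For other pairs it was -0.13, a value that is tied to the first because group means were subtracted. By these deviations 33 of 40 libraries were most like their own mouse.

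The 9 members, the pathway lists and the markers were chosen with earlier results of these data known. Named genes were the members, the 3 genes most correlated with each over 40 libraries and, per list, up to 4 called genes with the largest genotype difference at 6 hr and up to 2 with the largest LPS change in WT. Some genes that this rule names are not reported here. Coordinates and exon lengths are from GENCODE M21 and promoters from RefSeq. A level per kilobase is 2 to the power of the rlog value divided by merged exon length.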

Additional observations from a re-analysis of the deposited data

Results flagged for a closer look

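The interaction of genotype and 6 hr of LPS passed the test of the difference itself for Tyk2 (-0.42, a rise of 1.33 in WT and 0.91 in Cpeb4-/-) and Stat3 (-0.29, a rise of 2.35 in WT and 2.06 in Cpeb4-/-), by limma with adjusted p of 0.0065 and 0.035. The sign was the same in each of the 14 alternatives for either gene, but the Stat3 interaction was called in 5 of 14 (adjusted p 0.0052 to 0.21) and that of Tyk2 in 13 of 14 (0.075 without Cpeb4-/- mouse 62). The exact permutation test of the changes within single mice gave an adjusted p of 0.41 for either gene. With 4 against 4 mice its smallest p is 0.029, which Stat3 had, while Tyk2 had 0.057. Over 36 tests even the smallest p was adjusted to 0.41, so the adjusted value cannot decide on either interaction.

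Stat4 in Cpeb4-/- mouse 62 at 6 hr stood apart from its group at 5.62, the other 3 lying at 5.96 to 5.98. Without this mouse the difference between the genotypes at 6 hr remained called. Stat2 in WT mouse 69 at 3 hr stood apart at 13.76 from 3 libraries at 13.80, a group with a very small spread. Such gaps, by Dixon's limit for 4 values, were found in 2 of 90 groups of the members (2.22%) and in 4.87% of the 131030 groups over all genes tested, where about 1 in 20 is the share by chance.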

How the results depend on the processing

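Quantile normalization moved LPS results most. Against untreated cells at 1 hr it gave -0.051 for Jak1 and -0.0079 for Stat3 in Cpeb4-/- and -0.16 for Jak1, -0.028 for Stat3, -0.0040 for Stat6 and -0.12 for Tyk2 in WT, and at 9 hr -0.13 for Stat5b and -0.42 for Stat6 in Cpeb4-/- and -0.17 and -0.43 in WT, all opposite in sign to the values from the table as deposited, with the cause not tested. For 6 against 3 hr it gave -0.23 for Jak2, 0.0033 for Stat4 and -0.022 for Tyk2 in Cpeb4-/- and -0.10 for Jak2 in WT, for 9 against 6 hr 0.013 for Stat2 in Cpeb4-/-, between genotypes 0.013 for Stat6 at 6 hr and 0.025 for Stat3 at 9 hr, and for the interactions at 6 hr 0.0084 for Jak2, 0.018 for Stat2 and 0.025 for Stat6.

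Counts of members called between genotypes were 1 at 0 hr, 3 hr and 6 hr without a filter, 1 at 3 hr and 2 at 6 hr without trend, 1 at 3 hr and 1 at 9 hr with batch, and 1 at 9 hr with the stricter filter. Quantile normalization gave 1 at 1 hr and 1 at 9 hr, 4 at 1 hr against untreated cells in Cpeb4-/- and 1 interaction at 6 hr, as did no filter. The pooled fit gave 1, 5 and 3 at 0, 1 and 9 hr, and with the replicate block 2, 5 and 2. As a fixed effect, the block took no call from the LPS and 6 hr interaction results and added Jak2 (6 against 3 hr) and Stat4 (6 hr against untreated) in WT, changing no other call.

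Leaving out 1 mouse gave counts between genotypes of 0 to 4 at 1, 3 and 9 hr and 2 to 4 at 6 hr, and 0 to 2 interactions at 6 hr. Signs near 0 turned in such fits for Tyk2 (-0.041 to 0.052) and Stat6 (-0.047 to 0.0096) at 0 hr, Stat2 (-0.0080 to 0.073) at 1 hr, Jak1 (-0.039 to 0.031), Jak2 (-0.035 to 0.070) and Stat5b (-0.014 to 0.029) at 6 hr, Stat3 (-0.045 to 0.053) and Stat6 (-0.044 to 0.010) at 9 hr, the Stat4 (-0.12 to 0.014) and Stat6 (-0.074 to 0.0081) interactions at 6 hr, the Jak2 step from 3 to 6 hr in Cpeb4-/- (-0.020 to 0.10) and, at 9 hr against untreated cells, Stat5b in WT (-0.018 to 0.033) and Stat6 in WT (-0.016 to 0.030) and Cpeb4-/- (-0.023 to 0.020). None of these turned results was called. The limits of depth are unknown here, and rlog shrinks Stat4 most.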
